A study of Mus musculus with 24 samples.

Results

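The stefin A genes of the mouse were described in leukaemia cells sorted by surface markers. The 4 genes Stfa1, Stfa2, Stfa3 and Stfa2l1 were taken by symbol from a table of 23361 gene rows, and all 4 passed the filter on low values (1 FPKM or more in at least 4 libraries) that 11599 rows passed. They were chosen because Stfa2 and Stfa3 were among the largest falls in MacLowKit+Sca1+ against MacHigh cells, so differences that involve either of these groups are given as descriptions without a test. The tests below compare the 3 groups that the choice did not use.

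Stefin A proteins, the mouse relatives of human cystatin A, are small inhibitors that stay inside the cell and block papain-like cysteine proteases by binding tightly in the active site. Their targets include the cathepsins, the proteases of lysosomes and granules. In mice the family has expanded into a cluster of related genes, and its transcripts are well known from maturing neutrophils and from skin.

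RNA was sequenced from spleen cells of an acute myeloid leukaemia that carries NRASG12V, a constantly active form of the signalling protein NRAS, and Mll-AF9, a fusion of a chromatin regulator with a partner gene. All groups shared this genotype (NRASG12V/Mll-AF9) and a hybrid background, (FVB/n X C57/BL/6J) F1, and no group was free of leukaemia. Mac-1 is a myeloid integrin (gene Itgam), Kit is the receptor for stem cell factor, and Sca-1 (gene Ly6a) marks blood stem cells in mice. MacHigh, MacLowKit-Sca1-, MacLowKit+Sca1- and unsorted cells had 5 libraries each, and MacLowKit+Sca1+ had 4. Below, "MacLow" is left out of a group's name (Kit-Sca1-, Kit+Sca1-, Kit+Sca1+). Unsorted cells are the mixture from which the others were sorted. Age, the promoters that drive the transgenes and whether replicates were separate animals are not given in the sources used here, so the p-values reflect only how far these samples spread, possibly for technical reasons. The sample names begin with 1 of 6 prefixes (11, 12, 26, L, N or R) that recur across groups, and the labels do not say what a prefix stands for; libraries are named by it below.

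Values are FPKM, fragment numbers scaled by transcript length and by the size of the library, as the authors deposited them. Read counts were not used here, so absolute depth is unknown; ratios of low values put the depth of the libraries, relative to one another, between 0.807 and 1.986. A value of 0.001 stands where 0 would, and it can mark a failed estimate: 37 rows were at 0.001 in every library of a group while another group had 5 FPKM or more in every library, and for 35 of these the group was Kit+Sca1-. None of the 4 stefin A genes was at 0.001 throughout a group. Itgam averaged 633 FPKM in MacHigh and 62.0 to 267 in the MacLow groups, Kit 39.8 and 34.3 in the Kit+ groups and 0.668 in Kit-Sca1-, and Ly6a 7.67 in Kit+Sca1+ and 0.916 to 1.02 in the Sca1- groups.

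The 4 genes lie on chromosome 16 in a cluster of 298.6 kb (mm10, chr16:36156811-36455392, annotated by GENCODE M21). Stfa2l1 (chr16:36156811-36161953) and Stfa1 (chr16:36276951-36285373) are on the plus strand, and Stfa2 (chr16:36403992-36408457) and Stfa3 (chr16:36450537-36455392) on the minus strand. All are protein-coding genes. Between them lie Gm5483, Gm5416, 2010005H15Rik, BC117090 and BC100530, 5 further genes of the cluster that have rows in the table.

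The copies are close enough to bear on the measurement. The coding sequences of Stfa2 and Stfa2l1 were identical at 96.5% of alignment positions, with gaps counted as differences. The value was 81.1% for Stfa2 and Stfa3 and 57.5% for Stfa1 and Stfa2. Stfa1 has 387 coding bases against 312 in Stfa2, and the gaps this brings lower its value. Of all stretches of 50 bases in a transcript, 25.4% of those of Stfa1 also occurred in another gene (BC100530 or BC117090), 15.9% of those of Stfa2, 24.6% of those of Stfa2l1 and 0.0% of those of Stfa3. Reads from such stretches can be assigned to either copy, and how the authors' counting split them is not given in the sources used here, so the values of Stfa1, Stfa2 and Stfa2l1 are uncertain to that extent. The read length is not given either, and Stfa3 is the one gene of the 4 with no shared stretch at this length.

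The promoters are shown because the 4 genes moved together across libraries. In RefSeq (GRCm38.p6), the 4 promoters were taken as the 250 bases before the start. Identity between any pair was 80.2% to 89.4%, with gaps counted as differences. The 250 bases before the start are printed for the outermost genes of the cluster, Stfa3 (chr16:36455393-36455642, minus strand) and Stfa2l1 (chr16:36156561-36156810, plus strand), with capitals for the runs of 10 or more bases that all 4 promoters share.
Stfa3: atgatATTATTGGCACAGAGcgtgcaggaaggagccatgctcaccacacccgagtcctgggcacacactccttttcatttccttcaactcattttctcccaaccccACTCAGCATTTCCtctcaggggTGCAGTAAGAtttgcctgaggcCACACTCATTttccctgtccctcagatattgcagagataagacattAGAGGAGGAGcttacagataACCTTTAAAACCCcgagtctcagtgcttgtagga
Stfa2l1: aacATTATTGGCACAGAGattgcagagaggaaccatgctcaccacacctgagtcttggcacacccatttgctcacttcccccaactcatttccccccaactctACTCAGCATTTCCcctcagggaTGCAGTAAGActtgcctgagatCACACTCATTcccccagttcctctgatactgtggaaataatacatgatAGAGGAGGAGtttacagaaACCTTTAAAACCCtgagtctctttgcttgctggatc
The longest shared run, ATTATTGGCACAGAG, stood in 5 of 32851 mouse promoters of the same length, and the run ACTCAGCATTTCC in 9. The run nearest to the start, ACCTTTAAAACCC, stood in 8, and it began 33 bases before the RefSeq start in Stfa1, 32 in Stfa2, 34 in Stfa3 and 36 in Stfa2l1; for Stfa1 and Stfa2 that start lies inside the GENCODE span given above. The stretch of 30 bases that ends with this run, which is in capitals, shows how little the copies differ there (Stfa1 chr16:36277098-36277127, plus strand; Stfa2 chr16:36408383-36408412, minus; Stfa3 chr16:36455414-36455443, minus; Stfa2l1 chr16:36156758-36156787, plus).
Stfa1: aggaggagctttcggatACCTTTAAAACCC
Stfa2: aggaggagcttacagaaACCTTTAAAACCC
Stfa3: ggaggagcttacagataACCTTTAAAACCC
Stfa2l1: aggaggagtttacagaaACCTTTAAAACCC
On either strand, the TATA box core TATAAA was in 0 of the 4 promoters and in 12.4% of all promoters. The letters TTTAAA, which lie within the shared run, were in 4 of 4 against 12.1% of all, GAGGAA, a core of ETS factor motifs, in 4 of 4 against 23.3%, CCAAT in 4 of 4 against 33.8%, and the GATA core AGATAA in Stfa1 and Stfa3 against 10%. CCAAT too lies within a shared run, read on the other strand. The 4 promoters are similar copies, so a match in 4 of 4 does not stand for separate observations. All counts over mouse promoters include these 4. A match describes the letters only.

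Stefin A levels were highest in MacHigh and lowest in Kit+Sca1+. The summed FPKM of the 4 genes had a median of 240 in MacHigh (141 to 618), 89.5 in unsorted cells (56.7 to 266), 67.1 in Kit-Sca1- (32.4 to 274), 35.6 in Kit+Sca1- (5.51 to 229) and 7.98 in Kit+Sca1+ (0.676 to 10.1). Stfa2, Stfa3 and Stfa2l1 had the same order of group means on the log2(FPKM + 1) scale. For Stfa1, Kit+Sca1- (mean log2 3.58) stood ahead of Kit-Sca1- (3.02), next to unsorted cells (3.59). Values of neighbouring groups in these orders overlapped, except for Stfa3 between Kit+Sca1- and Kit+Sca1+. These were bulk samples, in which fewer cells of a type and less RNA per cell cannot be told apart.

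**Figure D1:**
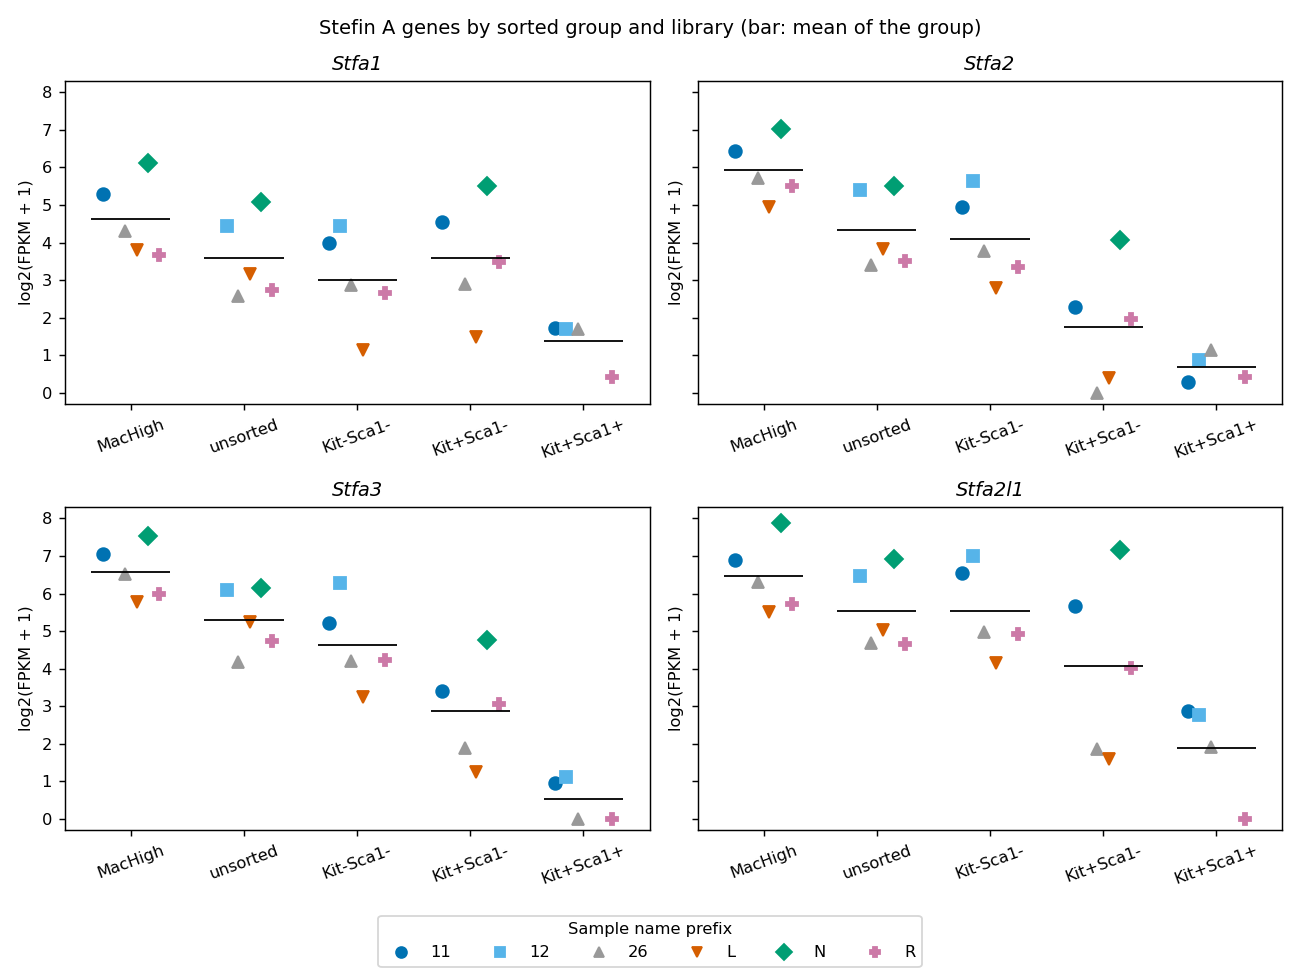
Level of each stefin A gene, log2(FPKM + 1), in every library of the 5 groups, with the sample name prefix as colour and shape and the group mean as a bar. Libraries of prefix N are the highest of each group they belong to, Stfa2, Stfa3 and Stfa2l1 step down from MacHigh to Kit+Sca1+, and the Kit+Sca1- mean of Stfa1 (3.58) is level with that of unsorted cells (3.59).

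Stfa3 showed the steepest course. In MacHigh it was at 133 FPKM in the library of prefix 11, 91.2 in 26, 53.6 in L, 185 in N and 62.7 in R (105 ± 54.4, SD, n = 5). In unsorted cells it was at 67.6 in 12, 17.2 in 26, 36.7 in L, 69.4 in N and 25.8 in R (43.3 ± 24, n = 5). In Kit-Sca1- it was at 36.4 in 11, 76.9 in 12, 17.6 in 26, 8.48 in L and 17.8 in R (31.4 ± 27.4, n = 5). Each of these groups spanned a wide range, with prefixes 11, 12 and N at the top. In Kit+Sca1- it was at 9.60 in 11, 2.68 in 26, 1.36 in L, 26.1 in N and 7.39 in R (9.42 ± 9.90, n = 5). In Kit+Sca1+ it was at 0.941 in 11 and 1.17 in 12, and was listed at 0.001 in 26 and R. The Kit+Sca1+ libraries all lay below every other library. Of Kit+Sca1-, the libraries 11 and N overlapped the values of Kit-Sca1- and the library N those of unsorted cells.

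Stfa2 fell in level in the same order. It was at 85.3, 52.1, 30.2, 129 and 44.6 FPKM in the MacHigh libraries of prefixes 11, 26, L, N and R (68.3 ± 39.6, n = 5). The unsorted libraries 12, 26, L, N and R had 40.9, 9.66, 13.3, 44.7 and 10.3 (23.8 ± 17.5, n = 5). The Kit-Sca1- libraries 11, 12, 26, L and R had 30.2, 48.5, 12.7, 5.95 and 9.11 (21.3 ± 17.9, n = 5). The last 2 groups covered much the same range. The Kit+Sca1- libraries 11, L, N and R had 3.86, 0.321, 15.7 and 2.92, and 26 was listed at 0.001. The Kit+Sca1+ libraries 11, 12, 26 and R had 0.223, 0.831, 1.21 and 0.333 (0.650 ± 0.459, n = 4). In Kit+Sca1- the N library overlapped the values of the Kit-Sca1- and unsorted groups, and the other 4 lay below all of them.

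Stfa2l1, whose coding sequence nearly equals that of Stfa2, was above Stfa2 in every library except that of prefix R in Kit+Sca1+. The MacHigh libraries 11, 26, L, N and R had 119, 77.6, 44.5, 235 and 51.8 FPKM (105 ± 77.8, n = 5). The unsorted libraries 12, 26, L, N and R had 87.0, 24.9, 31.5, 119 and 24.3 (57.4 ± 43.4, n = 5). The Kit-Sca1- libraries 11, 12, 26, L and R had 92.9, 128, 30.6, 16.8 and 29.5 (59.6 ± 48.5, n = 5). These 3 groups overlapped widely. The Kit+Sca1- libraries 11, 26, L, N and R had 50.1, 2.66, 2.02, 143 and 15.1 (42.5 ± 59.3, n = 5), the widest span of the 4 genes in any group without a value at 0.001, with the highest library 70.6 times the lowest. The Kit+Sca1+ libraries 11, 12 and 26 had 6.29, 5.79 and 2.77, and R was listed at 0.001. In Kit+Sca1- the N library was thus above every unsorted and Kit-Sca1- library, while 26, L and R were below all of them.

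Stfa1, the member whose coding sequence is farthest from the others, was the lowest of the 4 genes in MacHigh, unsorted and Kit-Sca1- cells. The MacHigh libraries 11, 26, L, N and R had 37.8, 18.9, 13, 68.7 and 11.8 FPKM (30 ± 24, n = 5). The unsorted libraries 12, 26, L, N and R had 20.5, 4.94, 7.95, 32.9 and 5.64 (14.4 ± 12.1, n = 5). The Kit-Sca1- libraries 11, 12, 26, L and R had 14.8, 20.7, 6.24, 1.22 and 5.28 (9.64 ± 7.90, n = 5). Values stepped down little between these groups compared with their spread. The Kit+Sca1- libraries 11, 26, L, N and R had 22.6, 6.39, 1.81, 44.2 and 10.2 (17.0 ± 17.0, n = 5). The Kit+Sca1+ libraries 11, 12, 26 and R had 2.29, 2.27, 2.23 and 0.341 (1.78 ± 0.961, n = 4). Kit+Sca1- libraries covered nearly the whole range of the unsorted and Kit-Sca1- ones, and Kit+Sca1+ libraries lay at its lower end.

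Kit+Sca1- cells were compared with Kit-Sca1- cells first, and Stfa2 and Stfa3 fell. On the log2(FPKM + 1) scale Stfa2 had a difference of -2.36 ± 0.65 (SE, limma adjusted p = 0.00444) and Stfa3 one of -1.77 ± 0.59 (limma adjusted p = 0.0153). In FPKM + 1 these are 5.12-fold and 3.41-fold lower. Stfa2l1 had a log2 difference of -1.46 ± 0.88 (limma adjusted p = 0.174) and Stfa1 one of 0.57 ± 0.69 (limma adjusted p = 0.527), neither past the threshold of 0.05. So 2 of 4 genes were called lower, where 26.3% of all rows tested were called lower. The call of Stfa3 was lost when the Kit-Sca1- library of prefix 12 was left out (-1.36, limma adjusted p = 0.0589), when the Kit+Sca1- library of prefix L was left out (-1.36, limma adjusted p = 0.0536), when only these 2 groups were fitted (limma adjusted p = 0.0566) and in the exact two-sided permutation test (p = 0.0714).

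Prefixes 11, 26, L and R have a library in both groups. Within these pairs, Kit+Sca1- minus Kit-Sca1- was -2.68, -3.77, -2.40 and -1.37 for Stfa2 and -1.82, -2.33, -2.0 and -1.16 for Stfa3 on the log2(FPKM + 1) scale. It was -0.88, -3.11, -2.56 and -0.92 for Stfa2l1, lower in 4 of 4 pairs. For Stfa1 it was 0.58, 0.03, 0.34 and 0.83, higher in 4 of 4. In the fit with the prefix as a block, Stfa2l1 was called lower as well (-1.64 ± 0.50, limma adjusted p = 0.00858), where 31.1% of rows were called lower. In a blocked fit of these 4 pairs alone, chosen after seeing the data, Stfa1 passed the threshold in the other direction (0.44 ± 0.14, limma adjusted p = 0.0414), where 24.7% of rows were called higher.

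**Figure D2:**
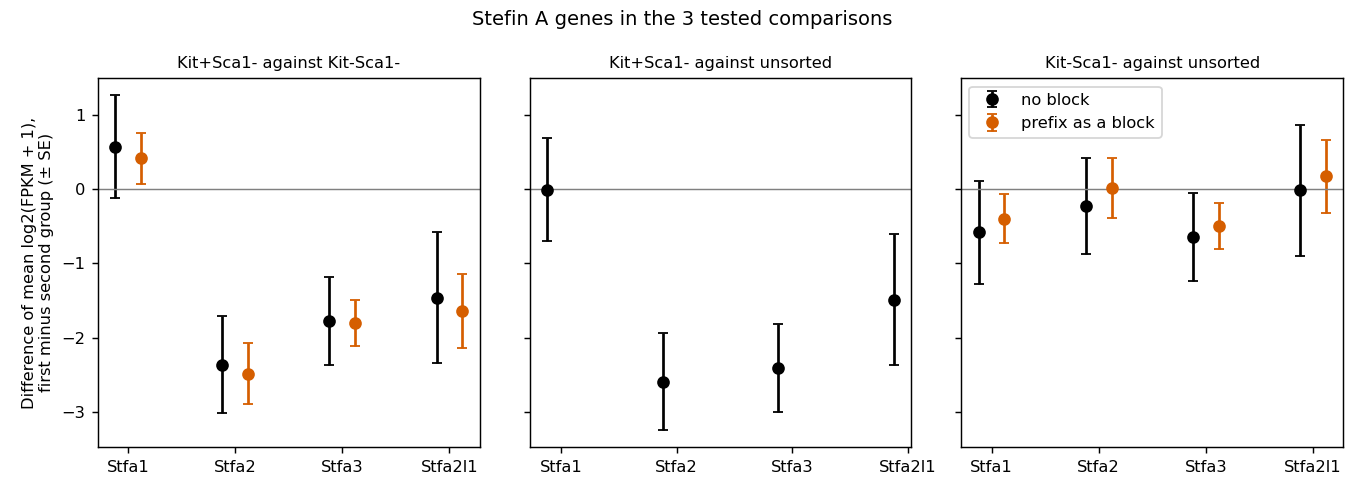
Difference of mean log2(FPKM + 1), first group minus second, for each stefin A gene in the 3 tested comparisons; points are estimates and bars their SE, in black without a block and in orange with the prefix as a block, drawn where every pair of same-prefix libraries deviated together. Stfa2 and Stfa3 lie below 0 in both comparisons of Kit+Sca1-, and the block narrows the bar of Stfa2l1 from 0.88 to 0.50 in the first.

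Against unsorted cells, Kit+Sca1- cells again had less Stfa2 and Stfa3; both comparisons share the Kit+Sca1- libraries. The log2 difference was -2.59 ± 0.65 for Stfa2 (limma adjusted p = 0.0023) and -2.41 ± 0.59 for Stfa3 (limma adjusted p = 0.00176). In FPKM + 1 these are 6.02-fold and 5.31-fold lower. The log2 difference of Stfa2l1 was -1.49 ± 0.88 (limma adjusted p = 0.172) and that of Stfa1 -0.01 ± 0.69 (limma adjusted p = 0.991). In all, 2 of 4 genes were called lower against 23.8% of all rows. Without the Kit+Sca1- library of prefix N, Stfa2l1 was called lower both here (-2.26, limma adjusted p = 0.0258) and against Kit-Sca1- (-2.24, limma adjusted p = 0.0255).

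Kit-Sca1- and unsorted cells gave no call for any of the 4 genes, with limma adjusted p from 0.496 to 0.988, where 14.6% of all rows were called in either direction. The log2 differences were -0.58 ± 0.69 for Stfa1, -0.23 ± 0.65 for Stfa2, -0.64 ± 0.59 for Stfa3 and -0.02 ± 0.88 for Stfa2l1. The standard errors are as large as most of these differences, and a p that misses the threshold does not show that the groups are alike.

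In Kit+Sca1+ against MacHigh, the contrast that chose the genes, Stfa3 had a log2 difference of -6.06 ± 0.62, the lowest of 11599 rows. Stfa2 had -5.25 ± 0.69 (rank 4 from the lowest), Stfa2l1 -4.58 ± 0.93 (rank 12) and Stfa1 -3.25 ± 0.74 (rank 61). In this contrast 22.4% of all rows were called lower, from which nothing is read about genes chosen by it. Kit+Sca1- minus MacHigh was -4.19 ± 0.65 for Stfa2, -3.71 ± 0.59 for Stfa3, -2.40 ± 0.88 for Stfa2l1 and -1.06 ± 0.69 for Stfa1. Kit+Sca1+ minus Kit+Sca1- was -1.06 ± 0.69 for Stfa2, -2.35 ± 0.62 for Stfa3, -2.18 ± 0.93 for Stfa2l1 and -2.20 ± 0.74 for Stfa1. Over the 7 comparisons with MacHigh or Kit+Sca1+, 28 of 28 differences put the mean of MacHigh above each other group and that of Kit+Sca1+ below each other group.

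Stfa1 made up a larger share of the summed FPKM of the 4 genes in the Kit+ groups. The share of Stfa1 in the summed FPKM of the 4 genes had a median of 9.18% in MacHigh (6.91% to 11.1%), 8.88% in unsorted (8.54% to 12.4%) and 8.50% in Kit-Sca1- (3.77% to 9.31%). In Kit+Sca1- it was 28.6% (19.3% to 54.4%) and in Kit+Sca1+ 29.7% (22.6% to 50.5%), with no overlap with the first 3 groups. The share of Stfa2 moved the other way between Kit-Sca1- (17.7%, 14.8% to 18.9%) and Kit+Sca1-, where its median was 5.82% and its highest value 8.22%. Stfa3 made up 36.7% in MacHigh, 31.3% in unsorted, 26.2% in Kit-Sca1-, 20.8% in Kit+Sca1- and 4.91% in Kit+Sca1+ (medians). Stfa2l1 made up 31.7%, 40.3%, 47.8%, 42.4% and 51.1% in the same order. The shares were looked at after the values had been seen and are not tested. Those of Kit+Sca1+ rest on sums as low as 0.676 FPKM. The other genes of the cluster, such as Gm5483 and BC100530, are outside these sums. Reads that Stfa1 shares with BC100530 or BC117090 can shift its share, and their part was not tested.

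**Figure D3:**
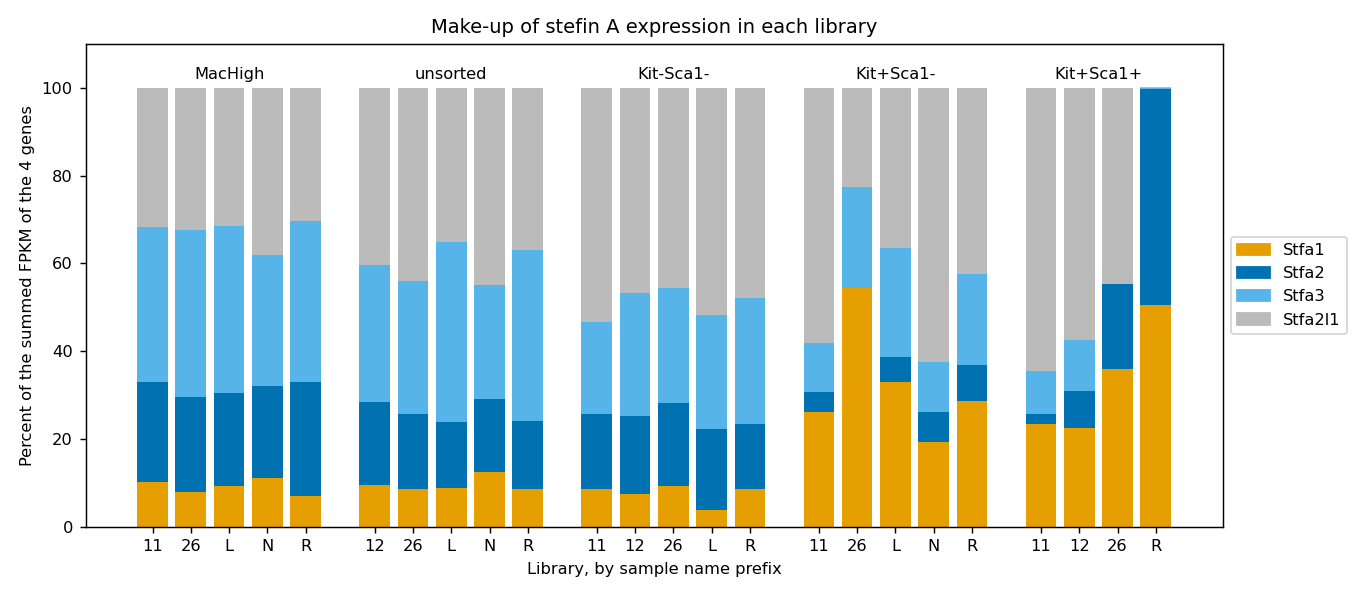
Percent of the summed FPKM of the 4 stefin A genes contributed by each gene, stacked from 0 to 100, for every library by group and prefix. Stfa1 (orange) takes 3.77% to 12.4% in the MacHigh, unsorted and Kit-Sca1- libraries and 19.3% to 54.4% in the Kit+ libraries.

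Within a group, stefin A levels differed among libraries more than those of most genes, and the libraries of 1 prefix deviated alike. The SD of log2(FPKM + 1) within groups was 1.18 for Stfa1, 1.11 for Stfa2, 1.00 for Stfa3 and 1.49 for Stfa2l1, against a median of 0.20 over all rows tested, and 99.2% to 99.5% of rows had a lower SD. Libraries of prefix N lay above their group mean by 1.24 (Stfa3) to 1.96 (Stfa2l1) on average, in 3 of 3 libraries for each gene. Those of prefix 12 lay above it by 0.86 to 1.09, also in 3 of 3, and those of prefix 11 by 0.38 to 1.02. Prefix L lay below the mean in 4 of 4 libraries for each gene, with mean deviations of -1.33 (Stfa2l1) to -0.97 (Stfa3). Prefixes 26 and R had mean deviations of -0.75 to -0.38 and -0.83 to -0.37.

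A moderated F test of the prefix beside the group, chosen after seeing the data and fitted to the 3 groups that the choice of genes did not use, called all 4 genes, where 11.6% of all rows were called. The prefix took up 88.1% of the within-group variance of Stfa1 (limma adjusted p = 0.0161), 85.9% of that of Stfa2 (limma adjusted p = 0.0197), 82.1% of that of Stfa3 (limma adjusted p = 0.0306) and 83.5% of that of Stfa2l1 (limma adjusted p = 0.0254), against a median of 65.1% over all rows. Without the N libraries of these groups none of the 4 was called (limma adjusted p = 0.0522, 0.0574, 0.071 and 0.0537 in the same order), where 3.32% of rows were, and the shares were 77.7% to 82.4%. Relative depth was 1.526 to 1.802 in the L libraries and 0.865 to 0.979 in the N libraries, but spread from 0.807 to 1.986 in the R libraries. The part of depth in the result was not tested.

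**Figure D4:**
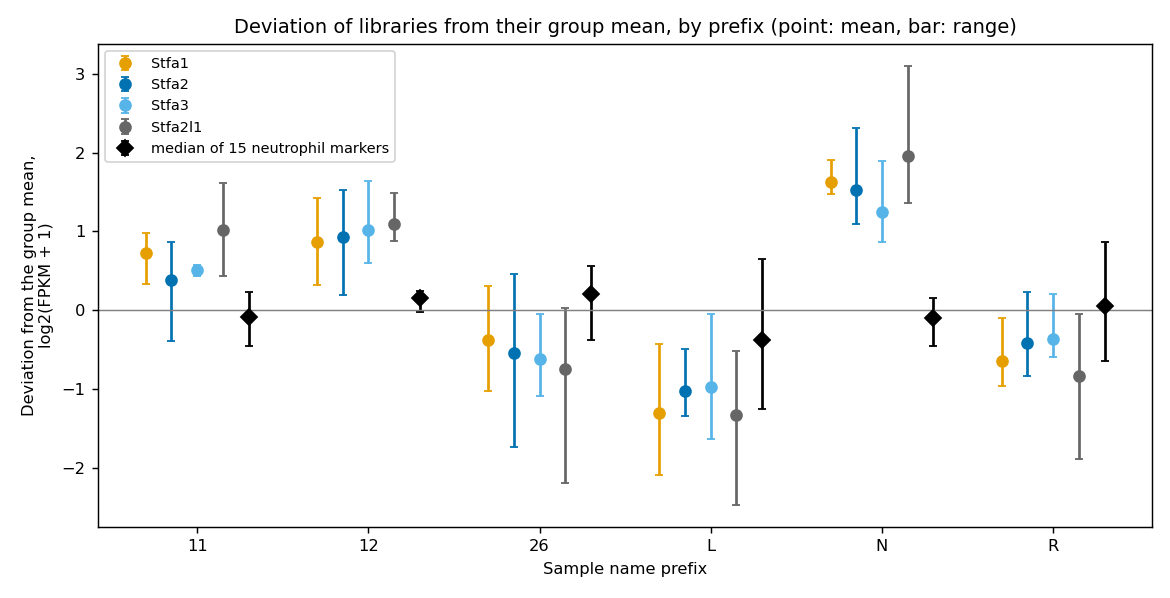
Mean deviation of the libraries of each sample name prefix from their group means, on the log2(FPKM + 1) scale, for the 4 stefin A genes and for the median of 15 neutrophil marker genes (black diamonds); bars run from the lowest to the highest library. The genes lie above 0 on average for prefixes 11, 12 and N and below 0 for 26, L and R, while the marker means stay between -0.38 and 0.20.

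The median deviation of the neutrophil markers in a library averaged -0.10 over the N libraries (-0.45 to 0.16) and -0.38 over the L libraries (-1.26 to 0.65). In the same 3 groups limma called 0 of 15 neutrophil markers among prefixes (5 at an unadjusted p under 0.05), where 11.6% of all rows were called. It called 0 of 10 monocyte markers (1 at that unadjusted p), 0 of 11 cysteine cathepsins and legumain (2) and 0 of 3 B and T cell markers (2). Called were 2 of 11 serine protease inhibitors, 1 of 3 other cystatins and 1 of 3 sort markers. Of the neutrophil markers, Chi3l3, Ngp, S100a8 and S100a9 were at 0.001 in every Kit+Sca1- library, and S100a9 in every unsorted library. These genes show no prefix differences in those groups. Of the 8 genes within 250 kb on either side of the cluster that passed the filter, chosen after seeing the data, 1 differed among prefixes (Ccdc58, limma adjusted p = 0.0442), against the same 11.6% of all rows. The within-group SDs of the 8 were 0.11 to 0.55.

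Across all 24 libraries the 4 genes correlated with one another at Pearson's r of 0.796 (Stfa1 with Stfa2) to 0.966 (Stfa2 with Stfa3), and after group means were removed at 0.904 to 0.943. These are descriptions over libraries that share groups and prefixes, and shared reads can add to them. The genes with the most similar pattern to the mean of the 4, among 11238 candidates, were Gm5483 (Pearson's r 0.983, Spearman's rho 0.968), Ccr1 (0.907 and 0.883), Tarm1 (0.900 and 0.847), Ifitm2 (0.892 and 0.861), Cdk17 (0.883 and 0.862) and Ear11 (0.881 and 0.868). Ccr1 encodes a chemokine receptor of myeloid cells and Ifitm2 an interferon-induced membrane protein. Gm5483, a gene of the same cluster, stands first also with group means removed from each gene (0.960, the highest of these 6).

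Of the 5 other genes of the cluster that passed the filter, 1 was called lower in Kit+Sca1- against Kit-Sca1-, where 26.3% of all rows were, and 2 against unsorted cells, where 23.8% were. Gm5483 averaged 104 ± 50 FPKM in MacHigh (SD, n = 5), 50.5 ± 34.5 in unsorted, 40.2 ± 34.9 in Kit-Sca1-, 18.4 ± 24.9 in Kit+Sca1- and 1.70 ± 0.704 in Kit+Sca1+ (n = 4). It fell in Kit+Sca1- against Kit-Sca1- (log2 difference -1.93 ± 0.77, limma adjusted p = 0.041) and against unsorted cells (-2.39 ± 0.77, limma adjusted p = 0.0137). The low 2010005H15Rik was the second gene called against unsorted cells (-0.75 ± 0.24, limma adjusted p = 0.0133). BC100530 and BC117090, which share stretches with Stfa1, had differences between Kit+Sca1- and Kit-Sca1- of -0.32 ± 0.82 (limma adjusted p = 0.775) and -0.57 ± 1.03 (limma adjusted p = 0.681), and Gm5416 reached at most 4.28 FPKM. Among prefixes, in the 3 groups and against the 11.6% of all rows, Gm5483 (limma adjusted p = 0.0313), BC100530 (limma adjusted p = 0.0272) and BC117090 (limma adjusted p = 0.000445) were called, and Gm5416 (limma adjusted p = 0.44) and 2010005H15Rik (limma adjusted p = 0.205) were not. Without the N libraries BC117090 was called (limma adjusted p = 0.00381), and Gm5483 (limma adjusted p = 0.0588) and BC100530 (limma adjusted p = 0.0602) were not.

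**Figure D5:**
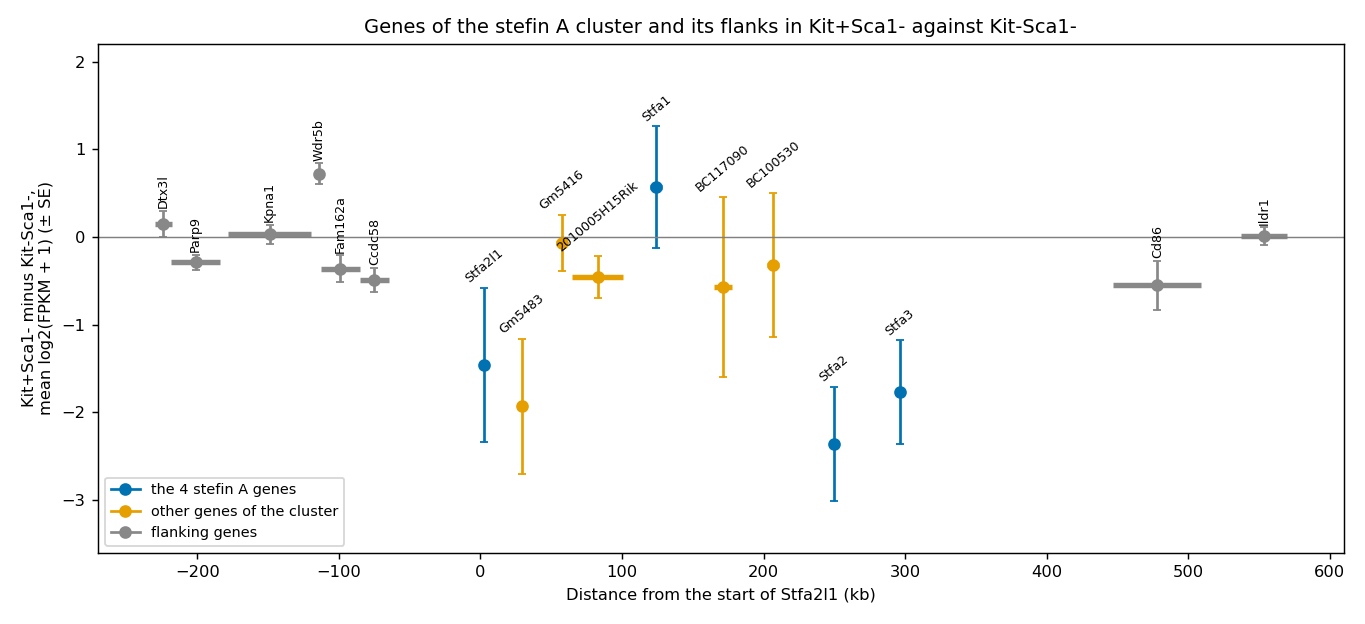
Difference of mean log2(FPKM + 1), Kit+Sca1- minus Kit-Sca1-, with SE, for the genes of the cluster and within 250 kb of it, against distance from the start of Stfa2l1 in kb; thick lines span each gene. Stfa2, Stfa3, Stfa2l1 and Gm5483 lie at -2.36 to -1.46, Stfa1 at 0.57, and the flanking genes between -0.55 and 0.72.

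Flanking genes outside the family were compared in the same way. In Kit+Sca1- against Kit-Sca1-, 1 of 8 rose (Wdr5b, 0.72 ± 0.12, limma adjusted p = 3.29e-05) and 3 of 8 fell, within -0.55 to 0.72, where 24% of all rows were called higher and 26.3% lower. Cd86, which encodes a costimulatory ligand for T cells and lies on the far side of Stfa3, fell against unsorted cells in Kit+Sca1- (-1.67 ± 0.28, limma adjusted p = 4.46e-05) and in Kit-Sca1- (-1.13 ± 0.28, limma adjusted p = 0.00944).

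Most cathepsins, the proteases that stefins inhibit, were lower in Kit+Sca1- than in Kit-Sca1- or unsorted cells. Of 11 cysteine cathepsins and legumain, 7 fell and 0 rose in Kit+Sca1- against Kit-Sca1- (median log2 difference -1.08, against -0.02 over all rows), where 26.3% of all rows fell. Against unsorted cells 11 of 11 fell (median -0.97, against 0.02), where 23.8% of all rows did. Ctsc, which activates granule serine proteases, averaged 206 ± 20.5 FPKM in Kit-Sca1- and 24.4 ± 5.96 in Kit+Sca1- (SD, n = 5 each; log2 difference -3.06 ± 0.16, limma adjusted p = 7.39e-13). Ctss, a protease of antigen processing, was at 227 ± 54.5 and 34.3 ± 20.5 (log2 difference -2.85 ± 0.26, limma adjusted p = 8.06e-09). Lgmn, which encodes legumain, a lysosomal endopeptidase listed beside the cathepsins and not one of them, was at 30.4 ± 6.77 and 4.19 ± 2.13 (log2 difference -2.68 ± 0.28, limma adjusted p = 5.19e-08). Ctsz fell (log2 difference -1.08 ± 0.12, limma adjusted p = 7.71e-08), whereas Ctsb, at 124 ± 20.6 and 118 ± 10.1, had a difference of -0.06 ± 0.15 (limma adjusted p = 0.776). In Kit+Sca1+ the proteases did not follow the stefin A genes down. The median difference of the 11 genes in Kit+Sca1+ minus Kit+Sca1- was 1.28, against -0.02 over all rows.

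Other inhibitors did not move as 1 group. Of 13 other cystatins 3 passed the filter. Cst7, an inhibitor of lysosomal cathepsins in immune cells, rose from 70.5 ± 14.7 FPKM in Kit-Sca1- to 211 ± 61.7 in Kit+Sca1- (log2 difference 1.54 ± 0.25, limma adjusted p = 2.95e-05). Cstb, the other intracellular stefin, fell from 124 ± 13 to 77.7 ± 17.3 (log2 difference -0.69 ± 0.14, limma adjusted p = 0.000327). Cst3, a secreted cystatin, was at 1056 ± 274 and 904 ± 487 (log2 difference -0.32 ± 0.25, limma adjusted p = 0.311) and reached 7398 ± 1811 in Kit+Sca1+. Of 11 serine protease inhibitors of leukocytes 2 rose and 6 fell in the same comparison (median -0.71), where 24% of all rows rose and 26.3% fell. Serpinb1a, an inhibitor of neutrophil elastase, rose by 2.19 ± 0.22 (limma adjusted p = 2.49e-08), while Slpi (-0.71 ± 0.14, limma adjusted p = 0.000214), Serpinb9 (-1.24 ± 0.15, limma adjusted p = 3.93e-07) and Wfdc17 (-2.89 ± 0.31, limma adjusted p = 8.6e-08) fell.

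Most monocyte markers were lower in Kit+Sca1- than in Kit-Sca1- cells. Of 10 monocyte markers 9 fell and 0 rose in Kit+Sca1- against Kit-Sca1- (median log2 difference -3.21), against the same 24% higher and 26.3% lower over all rows, and their summed level was 967 to 1610 FPKM against 1652 to 2181. F13a1 fell (-2.13 ± 0.21, limma adjusted p = 1.95e-08) and Ly6c2 was not called (0.36 ± 0.25, limma adjusted p = 0.251). Of 15 neutrophil markers 4 rose and 9 fell (median -3.19), but 4 of them (Chi3l3, Ngp, S100a8 and S100a9) were listed at 0.001 in every Kit+Sca1- library; without these, 4 rose and 5 fell of 11 (median 0.43). The summed neutrophil markers were at 6438 to 40886 FPKM in Kit+Sca1- and 22887 to 62810 in Kit-Sca1-. These sums include the 4 genes at 0.001, of which S100a8 averaged 17896 FPKM and S100a9 15364 in Kit-Sca1-. The 2 sums therefore cannot be compared as neutrophil content. In Kit+Sca1+ minus Kit+Sca1-, where the means of all 4 stefin A genes were lower, the median difference of the 10 monocyte markers was 0.64. Over all rows that median was -0.02. The part of the monocyte and neutrophil markers in the stefin A differences was not tested. Keratinocyte markers, of the other tissue known for stefin A, summed to at most 0.569 FPKM in any library, and 0 of 8 passed the filter. Of B and T cell markers 3 of 8 passed, and their sum was 4.34 to 23.3 FPKM in Kit+Sca1- and 10.2 to 21.4 in Kit-Sca1-.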

How the data were processed

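RNA was extracted with RNeasy and sequenced with Illumina libraries, per the labels' protocols. The authors deposited 1 table of FPKM for 24 libraries; per the submitters' processing notes TopHat2 2.0.4, Cuffdiff and the mouse genome mm10 were used. The unit is taken from the table's name and values; annotation, Cuffdiff version and any normalization between libraries are not given in the sources used here. Columns were matched by sample name, with 0 left unmatched.

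The 11599 of 23361 rows that reached 1 FPKM in 4 libraries were transformed to log2(FPKM + 1), a scale that understates changes of low genes. In limma 3.58.1 (R 4.3.3), group means were fitted over the 24 libraries with a variance trend and no block; adjusted p-values are Benjamini-Hochberg over all rows within a comparison, and a call is under 0.05. The script was tested on simulated data. The 4 genes and the lists were chosen with earlier results of these data known, and the lists were written from general knowledge.

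Genes named are the 4, the sort markers, other genes of the cluster with 1 FPKM in any library, from each list of cystatins, cathepsins and serine protease inhibitors the 3 of highest mean and the 3 of largest moderated t between Kit+Sca1- and Kit-Sca1-, the 2 highest of each cell marker list, and the 6 most similar in pattern. The flanking genes, the neutrophil markers at 0.001 and Cd86 were chosen after their values were seen.

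Same-prefix libraries of Kit+Sca1- and Kit-Sca1- deviated together from their group means in 4 of 4 pairs (correlation 0.279 to 0.487), as did those of Kit-Sca1- and unsorted (0.114 to 0.39), so there the prefix was treated as pairing, from the data and not the labels. Alternatives were other scalings, pseudocounts, filters, fits and left-out libraries. Coordinates are GENCODE M21, promoters RefSeq GRCm38.p6, in which 4 of 4 genes matched. Figures were drawn with matplotlib 3.10.9.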

Additional observations from a re-analysis of the deposited data

Results flagged for a closer look

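Among the 20 combinations of gene and group, 1 library stood far from the rest of its group: Stfa1 in the Kit+Sca1+ library of prefix R was at 0.341 FPKM, while the other 3 libraries lay between 2.23 and 2.29, so that the gap took up 0.981 of the group's range. Chance flags about 1 in 20 groups. This library also had the lowest relative depth of all, 0.807, and its part in the value was not tested.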

How the results depend on the processing

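The falls of Stfa2 in Kit+Sca1- kept their direction and their call in 20 of 20 alternatives against Kit-Sca1- (-3.40 to -1.92) and against unsorted cells (-3.65 to -2.15), and that of Stfa3 against unsorted cells in 20 of 20 (-2.88 to -2.0). Against Kit-Sca1-, Stfa3 kept its direction in 20 and its call in 16; it had -1.77 with p = 0.0566 (limma, adjusted) when only these groups were fitted, p = 0.0714 in the exact permutation test, and -2.24 to -1.36 over the fits that each left out 1 library. With the sample name prefix as a replicate block, Stfa2l1 passed the threshold against Kit-Sca1- (-1.64; -1.87 in the pairs alone) and against unsorted cells (-1.47; -1.66 in the pairs alone, limma adjusted p = 0.0847, not called), and Stfa1 passed it against Kit-Sca1- in the pairs alone (0.44). Leaving out 1 library gave -2.24 to -0.85 and -2.26 to -0.87 for Stfa2l1 in these comparisons. Stfa1 in Kit+Sca1- against unsorted cells, never called, changed sign with quantile normalization (0.14), with libraries rescaled to the same FPKM sum (0.10), with the prefix block (0.02) and over left-out libraries (-0.49 to 0.51). In Kit-Sca1- against unsorted cells, Stfa2 changed sign with the prefix block (0.01) and over left-out libraries (-0.61 to 0.09), and Stfa2l1 with the block (0.17), in the pairs alone (0.06) and over left-out libraries (-0.40 to 0.32). Among prefixes, in the 3 groups that the choice of genes did not use, the share of within-group variance was 82.4% for Stfa1, 81.3% for Stfa2, 77.7% for Stfa3 and 81.7% for Stfa2l1 without the N libraries, where all 4 calls were lost with fewer libraries; the 4 calls stood with quantile normalization and with the same FPKM sum. The cause was not tested.

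The replicate numbers in the titles do not pair the libraries (lowest correlations -0.293 to -0.0659), and a block on them changed no call of the 4 genes. Same-prefix libraries of Kit+Sca1- and unsorted cells had correlations of -0.019 to 0.328, so the block is a hint there only. It raised the rows called in Kit-Sca1- against unsorted cells from 1692 to 3115. Rescaling to the same FPKM sum moved the median of all rows in Kit+Sca1- against Kit-Sca1- from -0.02 to 0.18 and the share of calls that were higher from 47.7% to 71.5%. Against unsorted cells this share moved from 49.7% to 62.7% for Kit+Sca1- (64.6% with quantile normalization) and from 38.9% to 9.15% for Kit-Sca1- (53.2%); the block gave 51.5%. The described differences were below 0 in 28 of 28 in each alternative. With a pseudocount of 0.1, 9 grew by at least the SD of log2(FPKM + 1) within the second group. Others grew by less, such as Stfa1 in Kit+Sca1+ against MacHigh (from -3.25 to -3.94). Among the 9, Kit+Sca1+ against MacHigh had -6.55 for Stfa2, -8.12 for Stfa3 and -5.58 for Stfa2l1. Against Kit-Sca1-, Kit+Sca1+ had -4.64 for Stfa2 and -6.12 for Stfa3, and against unsorted cells -4.89 and -6.79. It had -4.14 for Stfa3 against Kit+Sca1-, and Kit+Sca1- against MacHigh had -5.31 for Stfa2. Without read counts, values near 1 FPKM, as in Kit+Sca1+, have no known counting error.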
